A study of Mus musculus with 24 samples.

Results

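The response of WT-ERG progenitors to the histone deacetylase 3 inhibitor BRD3308 was measured by RNA sequencing, in 8 of the 24 libraries of the series. They were chosen by their labels, as 4 libraries of WT-ERG cells with BRD3308 and 4 of WT-ERG cells with its solvent, DMSO. All cells were ER-Hoxb8 cells, a murine granulocyte-monocyte progenitor line, labelled as C57BL/6, in which a Hoxb8 protein fused to the estrogen receptor domain holds the cells immature while beta-estradiol is present. Every group was washed free of beta-estradiol and incubated for 36 h, with BRD3308 at 5 µM or with DMSO, and the source gives 4 independent experiments per group. WT-ERG cells carry a lentiviral vector that expresses human wild type ERG from the human PGK promoter, beside GFP, and were sorted as a stable GFP-positive line. P199L-ERG cells carry the same vector with a proline to leucine change in ERG, and BB cells the vector without ERG. Each of these lines also has 4 libraries with BRD3308 and 4 with DMSO, which are used below only to ask where the response of WT-ERG cells differed. Separate transductions for the replicates are not described, so that p-values measure the spread between experiments with 1 line.

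HDAC3 removes acetyl groups from histones as the enzymatic subunit of the NCoR and SMRT co-repressor complexes, which nuclear receptors and other sequence-specific factors bring to enhancers and promoters. Blocking its activity leaves histones near such sites acetylated, a state that goes with transcription. ERG is an ETS family factor of stem cells, megakaryocytes and endothelium that holds myeloid progenitors immature when its level is high, and the loss of estrogen from ER-Hoxb8 cells starts their differentiation toward neutrophils.

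Libraries of the BRD3308 group held 13105875 to 16145090 counts (median 15157522), and those of the DMSO group 12510036 to 16280939 (median 15090071.0). Of 53801 genes in the count table, 12963 had enough reads to be tested. A principal component with 67.4% of the variance among the 8 libraries separated the treatments. Replicate 4 of the DMSO group stood apart within its group, since its deviations from the group mean ran against exon length (correlation across 9784 genes -0.48, against -0.21 to 0.33 in the other 7 libraries). Without this library 3112 genes rose and 2876 fell, against 3207 and 3010 with it. The correlation with exon length was graded by replicate number. It was 0.33, 0.26, 0.06 and -0.48 in DMSO replicates 1 to 4, and 0.24, 0.03, -0.21 and -0.11 in BRD3308 replicates 1 to 4. Progenitor markers were present throughout, with a summed level of 10 defining genes of 26942 to 28117 CPM (counts scaled to the library total) with BRD3308 and 27767 to 29942 CPM with DMSO. Much of this sum was *Mpo*, at 14413.5 to 15916.5 CPM with BRD3308 and 16019 to 16673 CPM with DMSO. By the test described below, 3 of the 10 were higher with BRD3308 and 5 lower. Of the markers of other lineages, those listed at 0 in all 8 libraries were 4 of 10 for mast cells and basophils (*Fcer1a* and *Tpsb2* among them), 4 of 8 for eosinophils (*Epx*), 2 of 9 for dendritic cells and 0 of 8 for megakaryocytes. They were 5 of 8 for erythroid cells (the globins *Hba-a1* and *Hbb-bs*), 1 of 7 for B lymphocytes (*Ms4a1*), 3 of 9 for T lymphocytes and NK cells (*Cd4* and *Cd8a*) and 3 of 8 for fibroblasts and endothelium (*Cdh5*). Other members were expressed, among them *Cpa3*, *Itga2b* and *Pecam1*, whose values are given below. The mitochondrial genes *mt-Co2*, *mt-Co3* and *mt-Atp6* are listed at 0 as well, so that a 0 in this table is not read as absence. *Hoxb8* itself, whose counts can include the ER-Hoxb8 transgene, was at 799 to 854 CPM with BRD3308, against 619 to 741 CPM with DMSO (log2 fold change 0.24, SE 0.04).

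BRD3308 changed the level of a large share of the tested genes in WT-ERG cells. Rose and fell are used here of genes past an adjusted p of 0.05 in an edgeR quasi-likelihood fit of all 24 libraries, with Benjamini-Hochberg adjustment over 12963 genes, and fold changes are BRD3308 over DMSO on the log2 scale with their standard error (SE). In this fit 3207 genes rose (24.7%) and 3010 fell (23.2%). Changes beyond 1 on this scale were found for 901 genes that rose (6.95%) and for 20 that fell (0.154%), the second count being 35 without BRD3308 replicate 1 and 32 without BRD3308 replicate 3. The 4 BRD3308 libraries lay wholly above the 4 DMSO libraries for 2921 genes (22.5%) and wholly below them for 2791 (21.5%). Among the lowest expressed of 4 equal classes of genes 31.9% rose and 2.99% fell, whereas in the highest class 18.5% rose and 36.6% fell. A gene at a low level can enter the test through the BRD3308 libraries alone. Among the 11251 genes that reached 1 CPM on average in the DMSO libraries of the BB and P199L-ERG lines, which no library of WT-ERG cells decides, 2604 rose (23.1%) and 2991 fell (26.6%). The median change of all genes tested was close to 0 (-0.00148). For 2387 genes (18.4%) the 95% interval of the change lay within 0.2 of 0 on the log2 scale.

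More genes were detected with the inhibitor. The number of genes with at least 1 CPM was 11666, 11687, 11659 and 11705 in the BRD3308 libraries, against 11222, 11273, 11262 and 11294 in the DMSO libraries, a difference of 416.5 genes (exact two-sided permutation p = 0.0286, the smallest that 4 against 4 libraries can give). The groups did not overlap. The share of counts in mitochondrially encoded genes was 4.53 ± 0.256% with BRD3308 and 4.80 ± 0.212% with DMSO (SD, n = 4 each, exact permutation p = 0.171). For 83 cytosolic ribosomal protein genes the share was 2.36 ± 0.0659% with BRD3308 and 2.25 ± 0.139% with DMSO (exact permutation p = 0.2), and the 100 most abundant genes took 21.3 ± 0.469% with BRD3308 and 20.3 ± 0.545% with DMSO (exact permutation p = 0.0571).

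**Figure D1:**
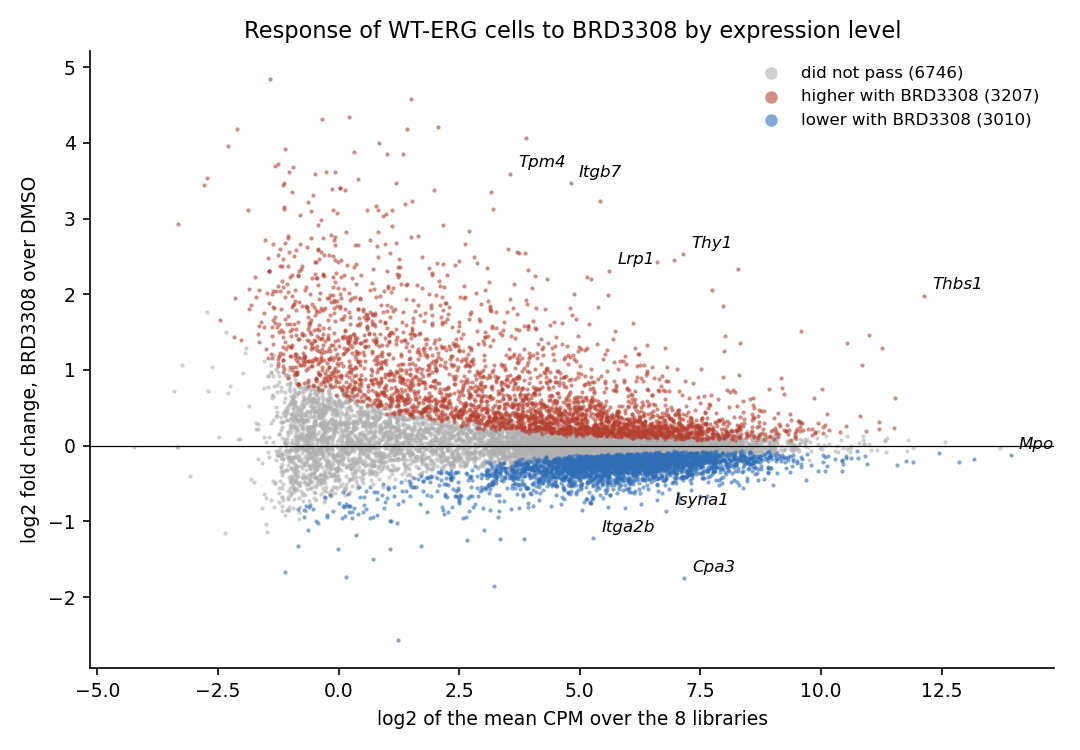
Log2 fold change of BRD3308 over DMSO in WT-ERG cells (vertical axis) against the log2 of the mean CPM over the 8 libraries (horizontal axis), with 1 point for each of 12963 genes, coloured by whether the gene rose, fell or did not pass. Points that rose reach far above 1, mostly at low levels, while only 20 genes that fell lie below -1.

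Among well expressed coding genes, meaning those whose mean log2 CPM was 5 or more, the 10 largest rises and the 10 largest falls are described. Genes whose groups overlapped were left out, so that separate groups are part of the choice. *Thy1* (ENSMUSG00000032011, chromosome 9, 44043384 to 44048579, plus strand), a GPI-anchored surface glycoprotein best known from thymocytes and neurons, was at 245, 228, 245 and 247 CPM with BRD3308, against 47.7, 39.3, 40.1 and 40.2 CPM with DMSO (log2 fold change 2.53, SE 0.06, adjusted p = 1.04e-22). *Lsp1* (ENSMUSG00000018819, chromosome 7, 142460809 to 142494867, plus strand), which encodes an actin-binding protein of leukocytes, was at 201, 205, 213 and 221 CPM with BRD3308, against 38.2, 37.3, 35.6 and 42.6 CPM with DMSO (2.45, SE 0.06).

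*Lrp1* (ENSMUSG00000040249, chromosome 10, 127538161 to 127621148, minus strand), a large endocytic receptor for lipoproteins and protease complexes, was at 88.8, 77.4, 72.9 and 85.6 CPM with BRD3308, against 17.3, 16.8, 17.2 and 13.7 CPM with DMSO (2.31, SE 0.09). *Ccr2* (ENSMUSG00000049103, chromosome 9, 124101950 to 124113557, plus strand), the receptor with which monocytes follow Ccl2, was at 330.5, 340.2, 355 and 358 CPM with BRD3308, against 82.9, 83.8, 82.8 and 82.8 CPM with DMSO (2.06, SE 0.05). The DMSO libraries hardly differed from each other. *Thbs1* (ENSMUSG00000040152, chromosome 2, 118111876 to 118127133, plus strand), the secreted matrix protein thrombospondin 1, was at 6849, 6918, 7241 and 7669 CPM with BRD3308, against 1659, 1875, 1875 and 1858 CPM with DMSO (1.98, SE 0.06), the largest gain of any gene in CPM. *Mmp14*, a membrane-anchored matrix metalloproteinase, was at 61.96 to 67.98 CPM with BRD3308, against 17.6 to 18.8 CPM with DMSO (1.82, SE 0.05), and *Flt1*, which encodes a receptor for vascular endothelial growth factor, at 100.3 to 108 CPM with BRD3308, against 32.1 to 36.5 CPM with DMSO (1.62, SE 0.05).

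The others of the 10 largest rises were *Stfa3* (2.42, SE 0.15), *Myadm* (1.99, SE 0.06) and *Mpeg1* (1.84, SE 0.05). *Stfa3* encodes a stefin A inhibitor of cysteine proteases, *Myadm* a membrane protein of myeloid cells and *Mpeg1* a perforin-like protein of macrophages. *Stfa3* was at 138, 149, 172 and 191 CPM with BRD3308, against 23.6, 31.8, 30.3 and 35.5 CPM with DMSO, and since it belongs to a cluster of near-identical stefin genes, the share of reads that is its own is uncertain.

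The largest falls were smaller than the largest rises. *Cpa3* (ENSMUSG00000001865, chromosome 3, 20215620 to 20242181, minus strand), the carboxypeptidase of mast cell granules, was at 67.4, 65.5, 68.8 and 60.8 CPM with BRD3308, against 236, 212, 213 and 223 CPM with DMSO (log2 fold change -1.75, SE 0.06, adjusted p = 3.05e-19). *Itga2b* (ENSMUSG00000034664, chromosome 11, 102453297 to 102470122, minus strand), the CD41 integrin chain of megakaryocytes and early progenitors, was at 25.1, 22.6, 21.6 and 23.6 CPM with BRD3308, against 56.6, 57.1, 53.1 and 49.9 CPM with DMSO (-1.22, SE 0.07). *Isyna1* (ENSMUSG00000019139, chromosome 8, 70594373 to 70597290, plus strand), which encodes the enzyme that makes inositol phosphate from glucose 6-phosphate, was at 82.7, 77.5, 77.4 and 75.6 CPM with BRD3308, against 141, 142, 144 and 143 CPM with DMSO (-0.86, SE 0.04).

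*Bmi1*, a Polycomb protein that maintains self-renewal, was at 36.04, 36.7, 32.9 and 34.02 CPM with BRD3308, against 59.7, 63.8, 62.4 and 59.7 CPM with DMSO (-0.81, SE 0.04). Another partner of Polycomb complexes, *Epop*, fell as well (-0.76, SE 0.06). The remaining genes of this group were *Tmem216*, a protein of the ciliary transition zone (-0.82, SE 0.08), *Entpd5*, a nucleotide diphosphatase of the endoplasmic reticulum (-0.77, SE 0.05), *Ahsa2*, a homologue of HSP90 co-chaperones (-0.76, SE 0.05), the deubiquitinase *Usp46* (-0.75, SE 0.04) and *Isoc1* (-0.74, SE 0.07).

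After *Thbs1*, the largest gains in CPM were in lysozyme, *Lyz2*, at 3482 ± 305 CPM with BRD3308 and 1423 ± 121 CPM with DMSO (SD, n = 4 each), in the calprotectin subunits *S100a9*, at 3005 ± 317 CPM with BRD3308 and 1091 ± 177 CPM with DMSO, and *S100a8*, at 2501 ± 226 CPM with BRD3308 and 1195 ± 171 CPM with DMSO, and in neutrophil elastase, *Elane*, at 2146 ± 58.6 CPM with BRD3308 and 835 ± 61.1 CPM with DMSO. The largest losses were in myeloperoxidase, *Mpo*, at 14963 ± 664 CPM with BRD3308 and 16282 ± 285 CPM with DMSO (-0.12, SE 0.04), in the mitochondrial transcripts *mt-Cytb* (-0.18, SE 0.06) and *mt-Nd1* (-0.21, SE 0.08) and in the serine proteases *Ctsg* (-0.21, SE 0.04) and *Prtn3* (-0.26, SE 0.05). *Elane* and *Prtn3*, neighbouring genes whose products fill the same primary granules, thus changed in opposite directions. For *mt-Nd1* the groups overlapped, with 6016 to 7300.2 CPM with BRD3308, against 7201 to 9019 CPM with DMSO. Calls were lost on leaving out 1 library for *Mpo* (BRD3308 replicate 2, adjusted p = 0.0614), *mt-Cytb* (BRD3308 replicate 1 or DMSO replicate 4, adjusted p = 0.0737 to 0.0918) and *mt-Nd1* (BRD3308 replicate 1 or 2 or DMSO replicate 4, adjusted p = 0.053 to 0.127).

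**Figure D2:**
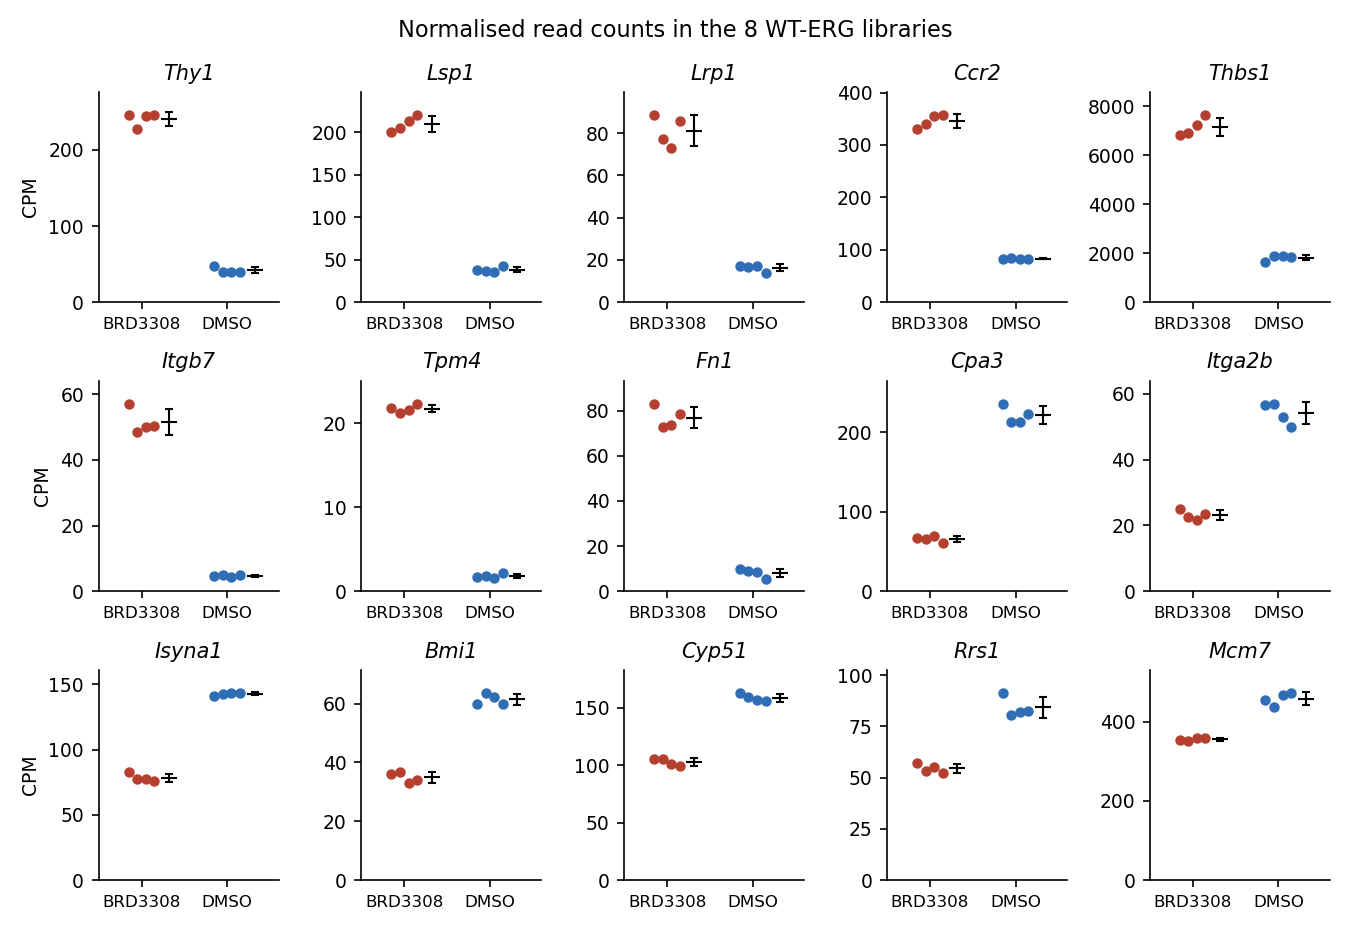
CPM of 15 genes in the 4 BRD3308 libraries (left, red) and the 4 DMSO libraries (right, blue) of WT-ERG cells, with the mean and SD of each group beside the points. The panels show *Thy1* to *Fn1* higher and *Cpa3* to *Mcm7* lower with BRD3308.

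The CG content of promoters differed between genes that rose and genes that fell. Promoters of RefSeq genes (GRCm38.p6, 250 bases before to 50 after the start) were matched by symbol to 8778 of 10984 coding genes tested. They are shown for the 3 well expressed genes that rose most and the 3 that fell most among those matched, as the 200 bases before the RefSeq start on the strand of the gene, with each CG dinucleotide in capitals. The windows are *Stfa3* at chr16:36455393-36455592, minus strand, *Lrp1* at chr10:127621149-127621348, minus strand, *Ccr2* at chr9:124101983-124102182, plus strand, *Cpa3* at chr3:20242182-20242381, minus strand, *Itga2b* at chr11:102469884-102470083, minus strand and *Isyna1* at chr8:70594281-70594480, plus strand. RefSeq starts differ from the starts of the genes in the count table, so that the windows of *Ccr2* and *Itga2b* lie wholly, and that of *Isyna1* partly, inside the gene coordinates given above.
Stfa3: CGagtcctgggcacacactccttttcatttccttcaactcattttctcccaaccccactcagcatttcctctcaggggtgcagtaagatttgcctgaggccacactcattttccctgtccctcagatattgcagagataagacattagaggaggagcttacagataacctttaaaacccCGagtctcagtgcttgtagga
Lrp1: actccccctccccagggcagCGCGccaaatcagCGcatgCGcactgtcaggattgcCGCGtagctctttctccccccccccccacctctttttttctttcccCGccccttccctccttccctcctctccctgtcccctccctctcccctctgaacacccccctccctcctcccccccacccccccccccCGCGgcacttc
Ccr2: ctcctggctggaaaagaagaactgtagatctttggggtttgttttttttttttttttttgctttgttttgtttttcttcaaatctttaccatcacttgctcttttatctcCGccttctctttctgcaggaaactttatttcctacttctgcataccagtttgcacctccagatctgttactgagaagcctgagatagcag
Cpa3: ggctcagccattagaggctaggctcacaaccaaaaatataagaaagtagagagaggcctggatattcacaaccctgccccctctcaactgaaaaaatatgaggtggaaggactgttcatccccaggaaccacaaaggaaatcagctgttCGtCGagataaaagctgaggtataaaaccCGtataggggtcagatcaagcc
Itga2b: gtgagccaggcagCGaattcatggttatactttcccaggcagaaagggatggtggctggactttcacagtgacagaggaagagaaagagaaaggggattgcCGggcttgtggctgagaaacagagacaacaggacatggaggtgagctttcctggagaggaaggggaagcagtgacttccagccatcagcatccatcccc
Isyna1: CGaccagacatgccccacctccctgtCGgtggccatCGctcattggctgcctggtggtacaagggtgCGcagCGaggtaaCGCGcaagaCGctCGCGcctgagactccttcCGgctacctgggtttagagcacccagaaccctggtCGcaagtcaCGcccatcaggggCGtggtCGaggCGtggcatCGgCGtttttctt

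The promoters of *Stfa3* and *Ccr2*, which rose, hold 2 and 1 CG dinucleotides in these 200 bases, while that of *Lrp1*, which also rose, holds 9. Among the genes that fell, *Isyna1* has 18 and lies in CG-rich sequence, whereas *Cpa3* and *Itga2b* have 3 and 2. That of *Cpa3* also holds the TATA box core TATAAA shortly before its start. CG-poor promoters thus stand in both groups of examples, and the pattern is one of shares over many genes.

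Over all 300 bases, genes that rose beyond 1 had a median of 10.5 CG dinucleotides in their promoter (564 genes), genes that rose by up to 1 had 20 (1677 genes), and genes that fell had 23 (2388 genes), against 21 for genes that did not pass (4149 genes). The share of genes that rose was 49.4% of the 820 genes with 0 to 5 CG dinucleotides and 20.4% of the 4594 genes with more than 20. The share that fell was 9.27% in the same CG-poor class and 31.2% in the CG-rich class. Genes with CG-poor promoters were expressed at a lower level (median log2 CPM 3.72, against 5.58 in the CG-rich class). Within the highest expressed of 4 equal classes of these genes, 44.9% of the 158 genes with at most 5 CG dinucleotides rose, against 16% of the 1325 genes with more than 20, and 22.8% against 37.1% fell. With the genes limited to those at 1 CPM or more in the DMSO libraries of the other lines, the shares that rose were 46.2% and 19.2%. These are descriptions over genes, which are not independent replicates, and were chosen with the response known. The same classes gave 47.9% and 20.4% of genes that rose in BB cells and 48.4% and 21.3% in P199L-ERG cells.

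Short motifs were searched on both strands of the same 300 bases. The ETS motif CCGGAAG stood in 6.38% of promoters of genes that rose beyond 1, in 14.9% of those that rose by up to 1, in 24.2% of those of genes that fell, in 21.8% of those that did not pass and in 8.91% of the 32544 distinct promoters of the table. This motif itself contains a CG. GAGGAAGT, a form bound by the ETS factor PU.1 that holds no CG, stood in 6.38%, 3.46%, 2.76% and 3.30% of these classes in the same order, and in 3.11% of all promoters. Both motifs share the core GGAAG. The TATA box core TATAAA stood in 12.8%, 7.87%, 5.57% and 5.71% of the classes and in 13.6% of all promoters. The 564 genes that rose beyond 1 were mostly at low levels, with 483 in the lowest expressed of 4 equal classes. There CCGGAAG stood in 6.83% of promoters of genes that rose beyond 1 and in 14.4% of those that rose by up to 1. It stood in 13.8% of those that fell and in 14.9% of those that did not pass. In the higher classes it stood in 24.7% to 25.4% of those that fell and 21.2% to 25.5% of those that did not pass. Those that rose by up to 1 held it there in 13.4% to 16.7%.

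**Figure D3:**
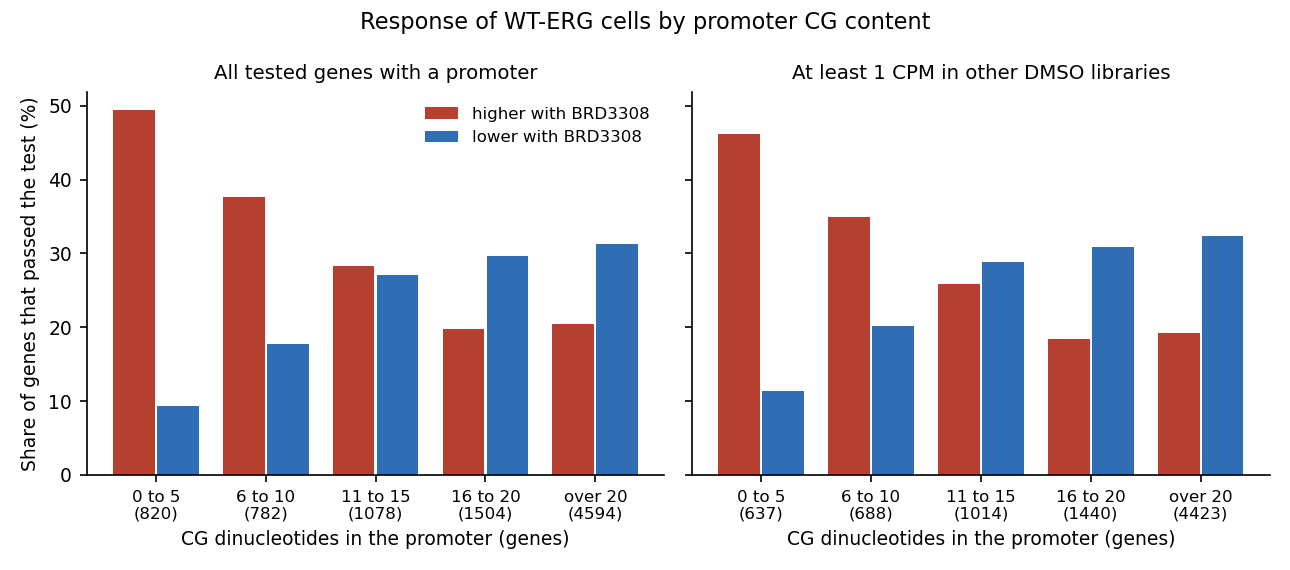
Share of genes that rose (left bars, red) and fell (right bars, blue) with BRD3308 in WT-ERG cells, in percent, by the number of CG dinucleotides in 300 bases of promoter, for all tested genes with a promoter and for those at 1 CPM or more in the DMSO libraries of the BB and P199L-ERG lines. The share that rose is 49.4% in the class of 0 to 5 and 20.4% in the class of more than 20.

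Genes of the extracellular matrix rose almost without exception, and those of integrins more often rose than fell. Of the extracellular matrix proteins and their proteases, 17 of 18 tested members rose and 0 fell (median 1.17), and of the members at 1 CPM or more in the other DMSO libraries 14 of 15 rose and 0 fell (median 1.07). Over all genes the shares are 24.7% and 23.2% and the median change is close to 0. Fibronectin, *Fn1*, was at 83.2, 72.7, 73.6 and 78.4 CPM with BRD3308, against 9.75, 8.80, 8.37 and 5.34 CPM with DMSO (3.24, SE 0.11), the latent TGF-beta binding protein *Ltbp3* at 14.6 to 18.2 CPM with BRD3308, against 1.46 to 2.73 CPM with DMSO (3.12, SE 0.13) and the laminin chain *Lamb2* at 13.2 to 15.2 CPM with BRD3308, against 2.67 to 2.91 CPM with DMSO (2.35, SE 0.10). Of the integrin subunits 9 of 16 rose and 2 fell (median 0.54), and of those at 1 CPM or more in the other DMSO libraries 8 of 14 rose and 2 fell (median 0.48). *Itgb7*, which pairs with alpha 4 in gut homing of leukocytes, was at 57.2, 48.4, 49.9 and 50.4 CPM with BRD3308, against 4.56, 4.97, 4.22 and 4.86 CPM with DMSO (3.47, SE 0.09), and *Itgax*, the CD11c chain of dendritic cells and macrophages, at 3.75 to 4.43 CPM with BRD3308, against 0.772 to 1.13 CPM with DMSO (2.14, SE 0.16). Those that fell were *Itga2b* and *Itgb1* (-0.07, SE 0.03), whose call was lost without BRD3308 replicate 1 or 2 or DMSO replicate 1 or 4 (adjusted p = 0.0522 to 0.103).

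Tropomyosins and actin regulators divided evenly, with 11 of 30 higher and 11 lower (median -0.02), yet the largest rises far exceeded the largest falls. Rises were also larger than falls over all genes tested, with medians of 0.54 for genes that rose and -0.26 for genes that fell. *Tpm4*, a non-muscle tropomyosin, was at 21.8, 21.2, 21.6 and 22.3 CPM with BRD3308, against 1.68, 1.82, 1.61 and 2.10 CPM with DMSO (3.59, SE 0.10), gelsolin, *Gsn*, at 351 to 366 CPM with BRD3308, against 146 to 154 CPM with DMSO (1.25, SE 0.04) and thymosin beta 10, *Tmsb10*, at 11.8 to 13.1 CPM with BRD3308, against 3.72 to 6.72 CPM with DMSO (1.32, SE 0.14). The strongest fall in this list was by 0.37. Of S100 calcium-binding proteins 6 of 8 rose and 1 fell (median 1.26), with *S100a6* at 39.9 to 47.3 CPM with BRD3308, against 11.9 to 15.2 CPM with DMSO (1.72, SE 0.10) and *S100a10* at 44.4 to 49.7 CPM with BRD3308, against 13.7 to 16.5 CPM with DMSO (1.67, SE 0.07), while *S100a1* fell (-0.40, SE 0.07). Of Ly6 antigens 4 of 5 rose and 0 fell (median 1.51), led in abundance by *Ly6c2*, an antigen of monocytes, at 1069 to 1244 CPM with BRD3308, against 358 to 462 CPM with DMSO (1.51, SE 0.07). *Ly6a*, *Ly6c1*, *Ly6c2* and *Ly6g* lie in a run of genes on chromosome 15 that rose, so that their values may not be independent. Limited to members at 1 CPM or more in the other DMSO libraries, 1 of 2 Ly6 antigens rose and 0 fell (median 0.77). By the same limit 5 of 7 S100 proteins rose and 1 fell (median 1.07). Semaphorins, plexins and neuropilins, guidance cues shared by neurons and leukocytes, had 7 of 11 higher and 1 lower (median 0.47), with *Nrp1* (1.41, SE 0.07) and *Plxnc1* (0.67, SE 0.04) among those that rose and *Sema6b* the one that fell (-0.42, SE 0.04).

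More genes rose than fell in each list of immune genes, although many members were near the limit of detection in DMSO-treated cells. Interferon-stimulated genes had 23 of 25 higher and 1 lower (median 1.45). Of these, 13 were at 1 CPM or more in the other DMSO libraries, of which 11 of 13 rose and 1 fell (median 0.44). *Oasl2*, a sensor of the oligoadenylate synthetase family, had 83 counts over the 4 BRD3308 libraries, against 10 over the 4 DMSO libraries, and *Ifi203* had 234 counts over the 4 BRD3308 libraries, against 36 over the 4 DMSO libraries. Oas and Ifi200 genes are families of close copies, so that reads can be divided uncertainly among them. Of interferon regulatory factors 5 of 7 rose and 0 fell (median 0.45), with *Irf8*, the monocyte and dendritic cell factor, at 26.5, 25.5, 24.7 and 24.3 CPM with BRD3308, against 4.98, 5.46, 4.59 and 5.18 CPM with DMSO (2.32, SE 0.08), *Irf5* (0.94, SE 0.11) and *Irf7* (0.88, SE 0.19).

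Of 14 listed genes of MHC class II and costimulation 8 were tested, and all 8 rose (median 1.35). Of the 6 at 1 CPM or more in the other DMSO libraries 6 rose. The 6 not tested had few or no reads, and include class II genes. Counts over the 4 BRD3308 and the 4 DMSO libraries were 3 and 0 for *H2-Aa* and 0 and 0 for *H2-Eb1*. They were 8 and 1 for *Cd74* and 8 and 4 for *Ciita*, while *H2-Ab1*, which rose, had 58 and 20. The inhibitory ligand *Cd274*, which encodes PD-L1, was at 12.7, 16.4, 15.8 and 17.97 CPM with BRD3308, against 4.35, 5.52, 5.46 and 6.48 CPM with DMSO (1.53, SE 0.15), and the costimulatory ligand *Cd80* at 15.2, 13.9, 15.8 and 12.5 CPM with BRD3308, against 5.26, 6.01, 3.91 and 4.37 CPM with DMSO (1.55, SE 0.12). MHC class I presentation was mixed. Of its genes 11 of 18 rose and 4 fell (median 0.26), the class I chain *H2-Q7* (0.74, SE 0.04) and the transactivator *Nlrc5* (0.64, SE 0.06) rose, and *Psmb10*, a subunit of the immunoproteasome (-0.48, SE 0.07), the peptide trimmer *Erap1* (-0.33, SE 0.05) and the loading factor *Tapbp* (-0.22, SE 0.04) fell. *H2-Q6* and *H2-Q7* are near-identical copies, and their separate values are uncertain.

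Sensing and inflammatory signalling genes followed the same direction. Of inflammasome and NOD sensors 13 of 17 rose and 0 fell (median 0.36), and of those at 1 CPM or more in the other DMSO libraries 10 of 14 rose and 0 fell (median 0.32). *Nlrp3*, the sensor of the best known inflammasome, was at 20.2, 25.8, 28.7 and 36.8 CPM with BRD3308, against 5.05, 4.85, 5.95 and 7.93 CPM with DMSO (2.24, SE 0.24), and interleukin 1 beta, *Il1b*, which inflammasomes process, at 5.68, 6.59, 6.34 and 6.50 CPM with BRD3308, against 0.982, 0.971, 1.24 and 2.19 CPM with DMSO (2.26, SE 0.22). The related cytokine *Il18* had 133 counts over the 4 BRD3308 libraries, against 6 over the 4 DMSO libraries. Of chemokine receptors 10 of 13 rose and 0 fell (median 0.84), with *Ccrl2* (1.07, SE 0.08) beside *Ccr2*. Of C-type lectin receptors 8 of 9 rose and 0 fell (median 0.44), of Fc receptors and their ITAM signalling partners 9 of 17 rose and 1 fell (0.27), with *Fcgr1* (1.76, SE 0.10) and *Fcgr4* (1.30, SE 0.09) higher and the kinase *Btk* lower (-0.16, SE 0.04). Complement and coagulation genes had 9 of 13 higher and 1 lower (0.75), with the coagulation factor gene *F13a1* (1.35, SE 0.04), and the protein C receptor *Procr* (1.87, SE 0.13) higher. Limited to members at 1 CPM or more in the other DMSO libraries, 9 of 11 rose and 0 fell (median 0.84) among chemokine receptors and 5 of 6 rose and 0 fell (median 0.41) among C-type lectin receptors. By the same limit 8 of 16 rose and 1 fell (median 0.25) among Fc receptors and their partners and 9 of 12 rose and 1 fell (median 0.76) among complement and coagulation genes. Eicosanoid genes had 6 of 14 higher and 1 lower (0.16), with *Hpgds*, the prostaglandin D synthase of mast cells and macrophages, at 12.6 to 15.5 CPM with BRD3308, against 3.44 to 4.55 CPM with DMSO (1.80, SE 0.12).

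Receptors for growth factors and cytokines had 15 of 24 higher and 1 lower (median 0.18). *Csf2rb2*, a beta chain of the interleukin 3 receptor, was at 117, 122, 118 and 124 CPM with BRD3308, against 47.7, 48.4, 51.4 and 44.4 CPM with DMSO (1.32, SE 0.04), while *Csf2ra*, the GM-CSF receptor alpha chain, was the member that fell, at 72.3, 75.2, 80.5 and 81.4 CPM with BRD3308, against 94.03, 104, 105 and 114 CPM with DMSO (-0.43, SE 0.08). Of STAT factors and SOCS feedback genes 6 of 16 rose and 4 fell (median -0.00413), with *Cish* (0.67, SE 0.10) and *Socs3* (0.35, SE 0.07) higher and *Stat5a* lower (-0.25, SE 0.06).

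**Figure D4:**
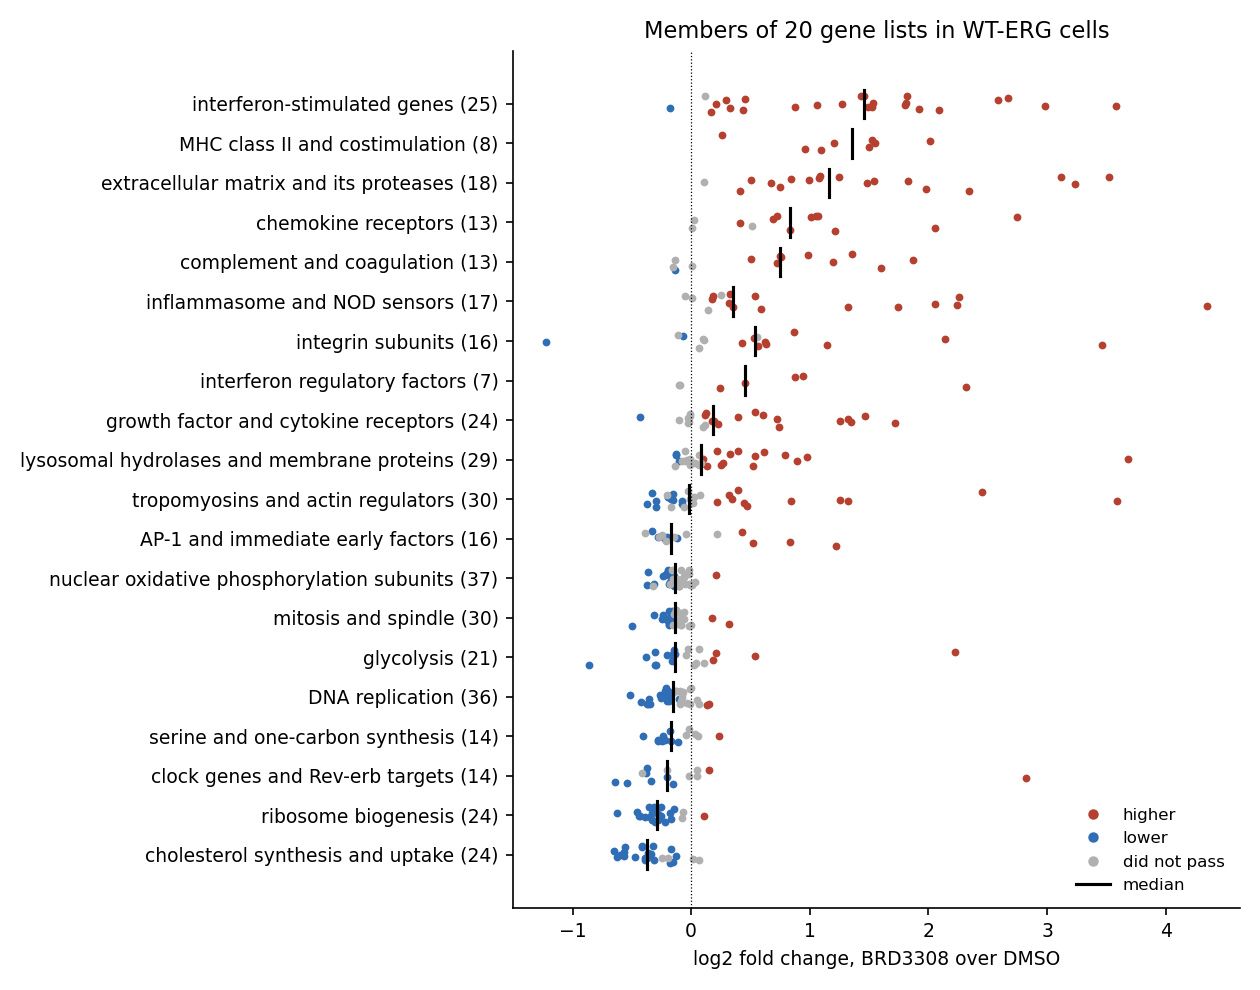
Log2 fold changes of BRD3308 over DMSO in WT-ERG cells (horizontal axis) for the tested members of 20 gene lists, 1 point a gene, with the number of genes tested in parentheses and the median of each list as a black line. All 18 points of the matrix list lie above 0, while 20 of the 24 genes of the cholesterol list fell.

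Genes of cholesterol synthesis and of ribosome biogenesis mostly fell, by small amounts. Of 24 genes of cholesterol synthesis and uptake, 20 fell and 0 rose (median -0.37). *Cyp51*, the lanosterol demethylase, was at 106, 106, 101 and 99.01 CPM with BRD3308, against 163, 159.7, 157 and 156 CPM with DMSO (-0.63, SE 0.04), and *Lss*, *Fdps* and *Nsdhl*, enzymes of the same pathway, fell by 0.65, 0.60 and 0.57. Of 24 ribosome biogenesis genes, 21 fell and 1 rose (median -0.29). *Rrs1*, a factor for the large ribosomal subunit, was at 57.2, 53.4, 55.2 and 52.5 CPM with BRD3308, against 91.6, 80.7, 82.2 and 82.7 CPM with DMSO (-0.63, SE 0.05), with *Wdr12* (-0.44, SE 0.05) and *Bop1* (-0.43, SE 0.04), which act in the same particle, also lower. Both lists moved within a narrow range, from -0.65 to 0.06 for cholesterol genes and from -0.63 to 0.11 for ribosome biogenesis.

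DNA replication genes had 19 of 36 lower and 2 higher (median -0.15). The helicase subunit *Mcm7* was at 354, 351, 358 and 359 CPM with BRD3308, against 456, 437, 466 and 474 CPM with DMSO (-0.37, SE 0.04), and *Rfc3*, a clamp loader subunit (-0.52, SE 0.07), *Orc1* of the origin recognition complex (-0.42, SE 0.08) and the polymerase subunit *Pold1* (-0.37, SE 0.03) fell too, while *Prim1* (0.15, SE 0.04) rose slightly. Of mitosis and spindle genes 2 of 30 rose and 14 fell (median -0.14), with *Cdc20*, an activator of the anaphase promoting complex, at 103 to 108 CPM with BRD3308, against 143 to 156 CPM with DMSO (-0.49, SE 0.04), and with topoisomerase *Top2a* higher (0.17, SE 0.04). Inhibitors of cyclin-dependent kinases had 3 of 6 higher and 0 lower (0.17). *Cdkn1a*, which encodes p21, was at 148, 149, 139 and 130.3 CPM with BRD3308, against 85.5, 82.2, 75.3 and 70.8 CPM with DMSO (0.85, SE 0.06), and *Cdkn2a* at 22.7 to 24.3 CPM with BRD3308, against 12.6 to 15.1 CPM with DMSO (0.78, SE 0.10). Of G1 cyclins, their kinases and E2F factors 3 of 17 rose and 5 fell (median -0.09), with *E2f2* (0.72, SE 0.04) and *Rb1* (0.36, SE 0.06) higher and *Ccnd2* lower (-0.34, SE 0.04). In the BCL2 family 6 of 15 rose and 4 fell (median 0.13). *Bmf*, a death-promoting member, was at 12.98, 12.6, 13.02 and 14.4 CPM with BRD3308, against 3.51, 3.52, 2.79 and 2.83 CPM with DMSO (2.06, SE 0.11), and *Bcl2l11*, which encodes BIM, rose as well (0.39, SE 0.07), whereas *Bak1* fell (-0.20, SE 0.03).

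Of glycolysis genes 4 of 21 rose and 11 fell (median -0.13), with *Aldoc* (-0.86, SE 0.10) and *Tpi1* (-0.38, SE 0.04) lower and the glucose transporter *Slc2a3* higher (0.53, SE 0.05). Nuclear subunits of oxidative phosphorylation had 14 of 37 lower and 1 higher (-0.13), and mitochondrially encoded subunits 3 of 8 lower and 0 higher (-0.07). The shares that fell, 37.8% and 37.5%, were near those of well expressed genes in general. In the third and the highest of 4 equal classes by expression 34.8% and 36.6% of genes fell. Of the mitochondrially encoded members, *mt-Cytb* and *mt-Nd1* lost their calls on leaving out single libraries, as given above. Serine and one-carbon synthesis had 9 of 14 lower and 1 higher (-0.17), *Mthfd1l* falling most (-0.41, SE 0.03) and *Mthfd2* rising (0.23, SE 0.04). Lysosomal genes went upward, with 15 of 29 higher and 3 lower (0.08), among them the lipase *Lipa* at 117 to 124 CPM with BRD3308, against 61.1 to 69.1 CPM with DMSO (0.89, SE 0.05) and cathepsin L, *Ctsl* (0.79, SE 0.08). In redox defence 9 of 15 rose and 3 fell (median 0.16). Heme oxygenase, *Hmox1*, was at 59.6, 56.9, 59.4 and 59.9 CPM with BRD3308, against 23.5, 24.1, 21.8 and 23.2 CPM with DMSO (1.35, SE 0.07), while glutathione reductase, *Gsr*, fell (-0.46, SE 0.04).

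Members of the chromatin lists moved mostly by small amounts. Of class II and class IV deacetylases 3 of 6 rose and 1 fell (median 0.16), with *Hdac9* at 6.78 to 8.64 CPM with BRD3308, against 3.37 to 4.90 CPM with DMSO (0.75, SE 0.12) and *Hdac4* (0.31, SE 0.05) higher. Of sirtuins 2 of 7 rose and 1 fell (median 0.06), with *Sirt1* the one that fell (-0.35, SE 0.05). Histone acetyltransferases and BET readers had 5 of 14 lower and 1 higher (-0.12), with *Kat2a*, the GCN5 enzyme, at 82.5 to 94.2 CPM with BRD3308, against 105 to 116 CPM with DMSO (-0.36, SE 0.05) and *Kat2b*, its close homologue (-0.26, SE 0.06), lower. In the Polycomb list, which does not hold *Bmi1* and *Epop*, 4 of 18 rose and 3 fell (median -0.03), with *Rnf2*, the partner of BMI1 in the ubiquitin ligase, lower (-0.36, SE 0.05) and *Cbx7* higher (0.40, SE 0.08). Of linker histones and histone variants 4 of 13 rose and 1 fell (median 0.25). Limited to members at 1 CPM or more in the other DMSO libraries, 4 of 10 rose and 1 fell (median 0.10). The replication-independent linker histone *H1f0* was at 133, 142, 165 and 165 CPM with BRD3308, against 69.3, 73.95, 74.6 and 78.4 CPM with DMSO (1.03, SE 0.11). It is also 1 of 10 tested genes reported to rise with deacetylase inhibitors in other cells, of which 5 rose and 0 fell (0.35), *Gsn* and *Cdkn1a* among them.

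Lists of nuclear receptors, which recruit NCoR, and of their targets held few tested genes. Of 11 listed retinoic acid receptor targets 5 were tested, 4 rose and 0 fell (median 1.14), with the retinaldehyde reductase *Dhrs3* at 52.5, 48.01, 50.01 and 49.4 CPM with BRD3308, against 19.3, 20.7, 19.03 and 22.99 CPM with DMSO (1.29, SE 0.08) and transglutaminase 2, *Tgm2*, at 95.1 to 108 CPM with BRD3308, against 64.04 to 72.3 CPM with DMSO (0.59, SE 0.06). Limited to targets at 1 CPM or more in the other DMSO libraries, 3 of 4 rose and 0 fell (median 0.94). The receptor *Rara* was at 2.74 to 3.67 CPM with BRD3308, against 0.912 to 2.24 CPM with DMSO (0.96, SE 0.22). Of the receptors as a list 3 of 12 rose and 2 fell (median 0.000402), and the one with the largest fall was *Nr1d1*, the heme receptor Rev-erb alpha of the clock, at 1.07 to 1.53 CPM with BRD3308, against 1.94 to 2.81 CPM with DMSO (-0.91, SE 0.20). Clock genes had 7 of 14 lower and 2 higher (-0.20), with *Per3* at 20.6 to 22.5 CPM with BRD3308, against 29.95 to 36.5 CPM with DMSO (-0.64, SE 0.07). LXR targets had 3 of 8 higher and 3 lower (-0.07), the cholesterol exporter *Abcg1* rising (1.15, SE 0.08) and the desaturase *Scd2* falling (-0.25, SE 0.05). PPAR targets had 3 of 7 higher and 0 lower (0.17), with the lipid droplet protein *Plin2* (0.47, SE 0.04).

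Among other transcription factors, AP-1 and immediate early factors had 4 of 16 higher and 5 lower (median -0.17), with *Jun* at 19.4, 26.7, 25.6 and 25.4 CPM with BRD3308, against 11.02, 10.6, 11.5 and 8.34 CPM with DMSO (1.22, SE 0.18) and *Fosl2* (0.84, SE 0.08) higher. Krüppel-like factors had 4 of 10 higher and 2 lower (-0.06), the MYC and MAX network 3 of 10 higher and 3 lower (-0.04), and HOX genes and their cofactors 2 of 7 higher and 1 lower (0.18). Of ETS factors other than ERG 2 of 15 rose and 5 fell (median -0.08). *Elk3* was at 88.5, 94.7, 96.5 and 101 CPM with BRD3308, against 49.1, 48.7, 50.4 and 55.1 CPM with DMSO (0.91, SE 0.05), whereas *Etv4* was at 5.49, 3.82, 3.74 and 3.59 CPM with BRD3308, against 6.39, 7.28, 7.13 and 7.45 CPM with DMSO (-0.76, SE 0.13) and *Etv5* fell too (-1.001, SE 0.18).

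Genes of unrelated tissues mostly had too few reads to be tested. Of 32 neuronal genes 5 were tested, 2 rose and 2 fell. Of 25 muscle genes 8 were tested and 5 rose, with *Tnni2*, a fast troponin, at 4.97 to 5.89 CPM with BRD3308, against 0.772 to 1.86 CPM with DMSO (2.09, SE 0.19). Of 24 germline genes 3 were tested and 2 rose, and of 22 epithelial genes 2 were tested and 2 rose, with keratin *Krt7* at 5.21 to 6.59 CPM with BRD3308, against 0.982 to 1.74 CPM with DMSO (2.004, SE 0.18). At 1 CPM or more in the other DMSO libraries were 0 germline genes, 1 epithelial gene, which rose, 4 muscle genes, of which 4 rose, and 3 neuronal genes, of which 1 rose and 2 fell. Among markers of other blood lineages and stroma, *Pecam1*, an adhesion molecule of endothelium and myeloid cells, was at 363.5 to 405.0 CPM with BRD3308, against 135.9 to 142.9 CPM with DMSO (1.44, SE 0.04), and made up nearly all of the summed level of 8 fibroblast and endothelium markers. Of 8 megakaryocyte markers 5 were tested, of which 3 rose and 1, *Itga2b*, fell. Platelet factor 4, *Pf4*, was at 18.8 to 21.6 CPM with BRD3308 and 7.02 to 9.72 CPM with DMSO (1.27, SE 0.09). *Gp9* rose as well (1.16, SE 0.16), as did *Vwf* (2.77, SE 0.49). The level of *Vwf* was low, at 0.688 to 1.07 CPM with BRD3308 and 0.0702 to 0.162 CPM with DMSO. Summed mast cell and basophil markers were at 330.3 to 352.9 CPM with BRD3308 and 507.2 to 555.2 CPM with DMSO, mostly through *Cpa3*. B lymphocyte markers divided, with *Cd79a* (2.41, SE 0.14) and *Ebf1* (1.88, SE 0.14) higher and *Ighm* (-1.12, SE 0.10) lower. In bulk RNA, a change in the number of cells of a type and a change in RNA per cell cannot be told apart.

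Some genes that rose lay in runs of neighbours on the chromosome. The longest run of neighbouring tested coding genes that all rose lay on chromosome 6. It holds the deaminase *Apobec1*, *Slc2a3*, *Foxj2*, the complement receptor *C3ar1*, *Necap1*, the lectin receptors *Clec4a3*, *Clec4a2*, *Clec4b2*, *Clec4n*, *Clec4d* and *Clec4e* and the scavenger receptor *Cd163*. Fold changes of these genes ran from 0.21 for *Foxj2* to 2.74 for *C3ar1*. *Foxj2* lost its call without BRD3308 replicate 1 or 4 or DMSO replicate 2, 3 or 4 (adjusted p = 0.0606 to 0.152), which divides the run. *Clec4b2* was at 54.9 to 64.6 CPM with BRD3308, against 26.5 to 28.8 CPM with DMSO. Next was a run of 9 genes on chromosome 1, from 39371492 to 40551705 (GRCm38), which holds the interleukin 1 and interleukin 18 receptor genes *Il1r2* (0.72, SE 0.09), *Il1r1* (1.72, SE 0.28), *Il1rl2* (2.60, SE 0.44), *Il18r1* (0.71, SE 0.19) and *Il18rap* (0.47, SE 0.04). On chromosome 11, 7 neighbours from *Mmp28* to *Wfdc17* include the chemokines *Ccl9* (0.89, SE 0.05), *Ccl6* (1.36, SE 0.10), *Ccl3* (1.54, SE 0.28) and *Ccl4* (2.07, SE 0.27), and 7 others hold the Cd300 receptors from *Cd300lb* (1.21, SE 0.06) to *Cd300lf* (0.55, SE 0.10).

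The longest run of coding genes that fell held 8 genes on chromosome 17, from 33843091 to 33949697, from *Cd320* (-0.35, SE 0.07) to *Wdr46* (-0.46, SE 0.06), with *Tapbp* among them. Of 10957 pairs of neighbouring coding genes, both rose in 8.71% and both fell in 8.24%, where the squares of the shares of single genes are 6.67% and 7.18%. No test of this was made. Members of the Clec4 and Cd300 families are copies that can share reads, neighbouring genes can overlap, and no strand setting was given for the counting, so that adjacent values are not fully independent.

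The response was then set against that of the other lines, each measured against its own DMSO libraries. BRD3308 raised 24% and lowered 22% of genes in BB cells, and raised 24.4% and lowered 24.1% in P199L-ERG cells. The difference between the responses of WT-ERG and BB cells passed the test for 107 genes with a more positive response in WT-ERG cells (0.825%) and 117 with a more negative one (0.903%). Without BRD3308 replicate 4 of WT-ERG cells the first count was 70. Against P199L-ERG cells, 3 genes had a more positive response (0.0231%) and 3 a more negative one (0.0231%). A difference that did not pass is not shown to be absent.

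The log2 response of several genes was more positive in WT-ERG than in BB cells. *Cybb*, the catalytic subunit of the phagocyte NADPH oxidase, was at 55.1 to 66.4 CPM with BRD3308 and 12.2 to 14.4 CPM with DMSO in WT-ERG cells, against 114 to 131 CPM with BRD3308 and 44.6 to 54.6 CPM with DMSO in BB cells (difference of log2 responses 0.94, SE 0.10, adjusted p = 1.36e-06). Its range lay below that of BB cells under both treatments. *Adgre1*, the F4/80 receptor of macrophages, was at 53.5 to 57.3 CPM with BRD3308 and 17.7 to 18.8 CPM with DMSO in WT-ERG cells, against 75.6 to 82.6 CPM with BRD3308 and 37.8 to 40.96 CPM with DMSO in BB cells (0.60, SE 0.07, adjusted p = 4.94e-06). The monocyte antigen *Ly6c2* (0.74, SE 0.09, adjusted p = 8.22e-06) and *I830127L07Rik* (1.09, SE 0.13, adjusted p = 7.34e-06) also responded more positively in WT-ERG cells. They are neighbouring genes on chromosome 15, so that their values may not be independent.

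*Osbpl3*, an oxysterol-binding protein, had a response of 0.85 in WT-ERG cells and 0.27 in BB cells (0.58, SE 0.06, adjusted p = 1.64e-07). The responses of *Sgms2*, a sphingomyelin synthase, had opposite signs. It was at 170.1 to 178 CPM with BRD3308 and 139 to 147 CPM with DMSO in WT-ERG cells and rose there, against 197 to 202 CPM with BRD3308 and 234 to 245 CPM with DMSO in BB cells, where it fell (0.54, SE 0.06, adjusted p = 3.64e-07).

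The 6 genes named for a smaller response in WT-ERG cells were all at a higher level in these cells than in BB cells without the inhibitor. The DMSO levels of both lines are part of the contrast that chose these genes, so that this is a description and no separate result. *Ifitm1*, an interferon-induced membrane protein, was at 309.9 to 338 CPM with BRD3308 and 263 to 324 CPM with DMSO in WT-ERG cells, against 163 to 194 CPM with BRD3308 and 48.3 to 54.1 CPM with DMSO in BB cells (-1.58, SE 0.09, adjusted p = 9.40e-13). *Thy1*, at the head of the rises above, was at 123 to 138 CPM with BRD3308 and 8.19 to 10.2 CPM with DMSO in BB cells, so that its fold was larger there while its level stayed below that of WT-ERG cells (-1.33, SE 0.10, adjusted p = 7.64e-10). The same held for *Ifitm3* (-0.79, SE 0.07, adjusted p = 1.97e-08), *Ccr2* (-0.66, SE 0.07, adjusted p = 3.58e-07) and the metalloprotease *Adam8* (-1.39, SE 0.14, adjusted p = 3.58e-07). *Tespa1*, a signalling protein of lymphocytes, was at 21.2 to 24.8 CPM with BRD3308 and 23.9 to 25.7 CPM with DMSO in WT-ERG cells and did not pass there (-0.07, SE 0.08), against 14.1 to 17.6 CPM with BRD3308 and 6.54 to 8.51 CPM with DMSO in BB cells, where it rose (-1.15, SE 0.13, adjusted p = 1.36e-06). The ETS factor *Etv4* fell in WT-ERG cells and had a response of 0.41 in BB cells (-1.16, SE 0.23, adjusted p = 0.00355).

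**Figure D5:**
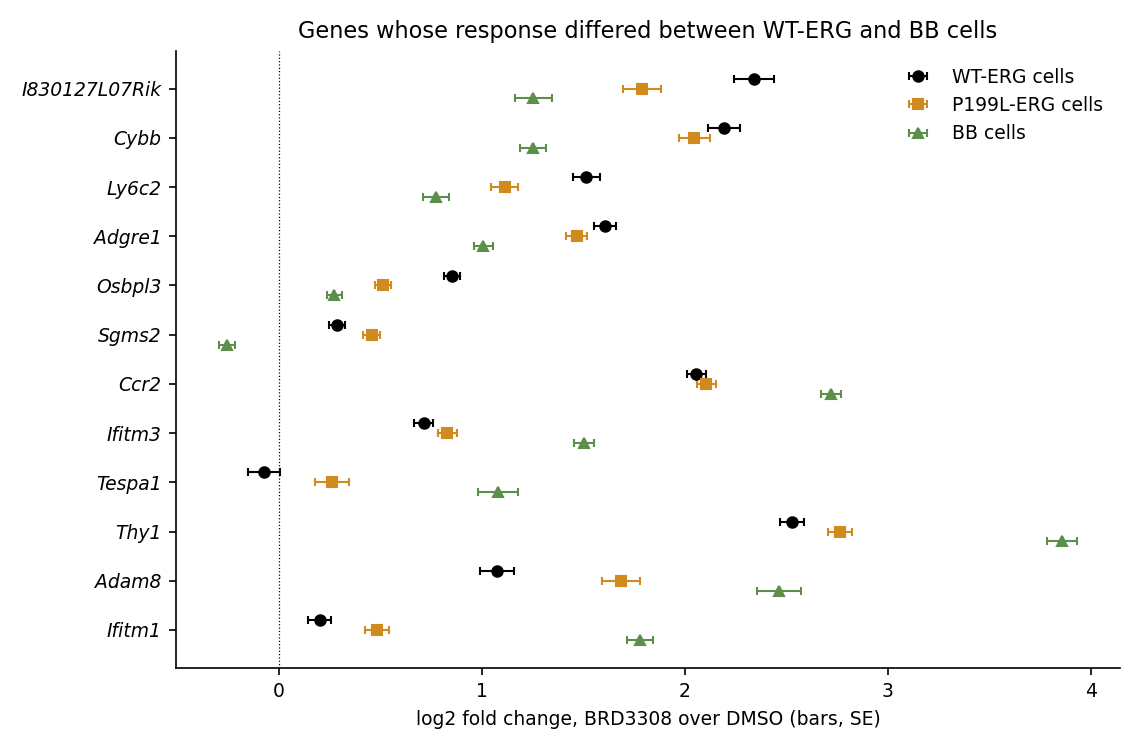
Log2 fold change of BRD3308 over DMSO (horizontal axis, bars are the SE) of 12 genes in WT-ERG cells (circles), P199L-ERG cells (squares) and BB cells (triangles), each against its own 4 DMSO libraries. The first 6 genes responded more positively and the last 6 more negatively in WT-ERG than in BB cells, with *Ifitm1* at 0.20 against 1.78.

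The genes that separated WT-ERG from P199L-ERG cells included genes of the endoplasmic reticulum. *Herpud1* was at 199.7 to 217 CPM with BRD3308 and 160.4 to 165 CPM with DMSO in WT-ERG cells, against 155 to 171 CPM with BRD3308 and 165 to 191 CPM with DMSO in P199L-ERG cells (0.49, SE 0.08, adjusted p = 0.0153), and *Dnajb9* had a response of 0.27 in WT-ERG cells and -0.22 in P199L-ERG cells (0.49, SE 0.09, adjusted p = 0.0332). Both belong to the response to unfolded proteins. *Osbpl3* was the third gene with a more positive response (0.34, SE 0.06, adjusted p = 0.0153). The scaffold protein *Tspoap1* (-0.46, SE 0.08, adjusted p = 0.0274) and the keratin *Krt80* (-0.46, SE 0.09, adjusted p = 0.0493) responded more negatively. Each of the 6 calls was lost on leaving out some single libraries. Fitted on the 4 groups compared alone, edgeR called 1 gene as more positive and 0 as more negative (357 and 276 at an unadjusted p under 0.05), while over all 24 libraries DESeq2 called 11 and 6 and limma-voom 3 and 3. With each library left out in turn the counts ran from 0 to 6 and from 0 to 3.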

How the data were processed

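RNA of ER-Hoxb8 cells was sequenced in 24 libraries, 4 in each of 6 groups. Per the labels and the study's methods, the authors discarded reads under 30 bp after trimming with cutadapt, aligned the rest with STAR to GRCm38 and counted them per gene with HTSeq. The sources used here name no versions, no annotation and no strand setting. The deposited values are these raw counts, of which 53706 of 53801 gene identifiers matched GENCODE M21. The methods give BRD3308 at 5 µM for 36 h for sequencing, whereas other passages of the source give a lower dose and a longer time.

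Counts were fitted with edgeR 4.0.16 in R 4.3.3 (filterByExpr, TMM factors, quasi-likelihood test), with 1 coefficient for each of the 6 groups over all 24 libraries, and p-values were adjusted over 12963 genes. CPM values use TMM-scaled totals. SEs were taken from the log2 fold change and its F statistic. Differences in response are contrasts of the same fit, whose lines have separate DMSO libraries. Single measures per library were compared by exact two-sided permutation tests. The procedure was tested on simulated data. Alternatives were DESeq2 1.42.0, limma-voom (limma 3.58.1), RLE factors, library size alone, no filter, the groups compared alone, a block for the replicate number, and the omission of each single library.

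Genes named are the 10 largest rises and falls among coding genes whose mean log2 CPM was 5 or more and whose groups were separate, the 5 largest gains and losses in CPM, up to 4 leading members of each of 51 lists and those against its majority, nearly silent genes, members of the longest runs of neighbours, and the leading differences between lines. The members, lists and tests were chosen with earlier results of these data known. Promoters are RefSeq sequences of GRCm38.p6. Depth, at 12510036 to 16280939 counts per WT-ERG library, limits the precision of genes near the filter. Some genes that meet these rules are not reported here.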

Additional observations from a re-analysis of the deposited data

Results flagged for a closer look

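Of 342 groups of 4 libraries checked, 14 had 1 library far from the other 3, where chance gives about 1 in 20. Replicate 4 of the DMSO group was the one apart for *Lrp1* (13.7 CPM, others 16.8 to 17.3), *S100a10* (16.5 CPM, others 13.7 to 14.1), *Gsr* (1029.0 CPM, others 917 to 936) and *Clec4a3* (0.162 CPM, others 0.0607 to 0.0702). Replicate 1 of the DMSO group was apart for *Thy1* (47.7 CPM, others 39.3 to 40.2), *Thbs1* (1659 CPM, others 1858 to 1875), *Cd300lf* (61.3 CPM, others 77.5 to 80.4) and *Hdac4* (53.1 CPM, others 47.7 to 48.5). In the BRD3308 group, replicate 1 was apart for *Etv4* (5.49 CPM, others 3.59 to 3.82) and *Fdps* (82.4 CPM, others 77.1 to 77.8). Replicate 2 was apart for *Thy1* (228 CPM, others 245 to 247) and *Hmox1* (56.9 CPM, others 59.4 to 59.9). Replicate 4 was apart for *Kat2b* (37.4 CPM, others 44.3 to 45.7) and *Cd163* (1.83 CPM, others 0.863 to 0.969).

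Responses that differed between the lines by the test of the difference in the edgeR fit were, as WT-ERG minus BB on the log2 scale, more positive for *Osbpl3* (0.58), *Sgms2* (0.54), *Cybb* (0.94), *Adgre1* (0.60), *I830127L07Rik* (1.09) and *Ly6c2* (0.74). They were more negative for *Ifitm1* (-1.58), *Thy1* (-1.33), *Ifitm3* (-0.79), *Ccr2* (-0.66), *Adam8* (-1.39) and *Tespa1* (-1.15). As WT-ERG minus P199L-ERG they were more positive for *Osbpl3* (0.34), *Herpud1* (0.49) and *Dnajb9* (0.49) and more negative for *Tspoap1* (-0.46) and *Krt80* (-0.46).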

How the results depend on the processing

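No called change of a named gene reversed its sign under the alternatives run. Of 331 named genes, the call of a response in WT-ERG cells was lost for 7 with DESeq2, 4 with RLE factors, 3 with library size alone, 18 without the filter, 5 in the fit of the groups compared (317 kept it and the others were not tested there), 1 with limma-voom and 40 on leaving out at least 1 library. Genes that fell beyond 1 numbered 52 without the filter, against 20. Numbers of genes with a more positive and a more negative response than BB cells were 213 and 208 with the replicate number as a block, against 107 and 117, while 139 and 132 with DESeq2, 113 and 108 with RLE factors and 121 and 107 with library size alone turned which was the larger. Against P199L-ERG cells, where 3 and 3 were found, they were 11 and 6 with DESeq2, 9 and 12 without the filter, 1 and 0 in the fit of the groups compared and 12 and 16 with the block, and RLE factors gave 1 more negative gene. The replicate block changed no call of the 331 named genes. Same-numbered libraries deviated together weakly (r = 0.19, 0.02, 0.03 and 0.11), and the numbers were not taken as pairs. Yet replicate 1 of either treatment ran against replicate 4 of the other (r = -0.16 and -0.13). The second principal component also fell from replicate 1 to 4 in both groups (10.1 to -7.10 with BRD3308, 16.8 to -21.3 with DMSO). What lies behind this shared order was not tested. With the block 3574 genes rose and 3503 fell, against 3207 and 3010. No gene was nearly silent with DMSO when 80 counts were asked for with BRD3308 (0, against 5 at 40 counts).

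With each library left out, 2906 to 3112 genes rose and 2775 to 2967 fell, of which 873 to 938 and 25 to 35 went beyond 1. Without BRD3308 replicate 1, 3 or 4, fewer genes rose (2948, 2907 and 2906) than fell (2967, 2939 and 2910), as also among genes of at least 1 CPM in the other DMSO libraries (2604 and 2991). More genes pass the filter with 3 libraries in a group. Genes with a more positive response than BB cells numbered 70 to 101 and those with a more negative one 88 to 120, against P199L-ERG cells 0 to 6 and 0 to 3. The difference in genes detected was 402.9 to 426.9 (exact permutation p = 0.0571, the smallest that 3 against 4 libraries can give).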

Other observations

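Long noncoding RNAs rose more often than they fell. Of 965 long noncoding RNAs tested, 272 rose (28.2%) and 43 fell (4.46%), while of 10984 coding genes 25.8% rose and 26.8% fell. Pseudogenes moved less often, with 56 of 688 higher (8.14%) and 13 lower (1.89%). Among the lowest expressed of 4 equal classes of all genes 31.9% rose and 2.99% fell.

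In WT-ERG cells 5 genes were nearly silent with DMSO, at up to 3 counts over 4 libraries, and reached at least 40 counts with BRD3308. They were chosen by these counts, so that high ratios and their intervals follow from the choice and are no test. The phosphatase gene *Dusp15* (chromosome 2, 152940997 to 152951698) had 51 counts with BRD3308 and 1 with DMSO, a ratio of 50.5 per total counts (95% interval 8.66 to 2033, exact for counting error only). *Sh2d6* had 43 and 1 counts with BRD3308 and DMSO (ratio 42.6, 7.24 to 1720.1), and *Fam178b* 46 and 3 (15.2, 4.88 to 76.3). The noncoding genes *Gm16196* and *Gm31925* had 53 and 45 counts with BRD3308, against 3 each with DMSO (ratios 17.5, 5.67 to 87.5, and 14.9, 4.77 to 74.7). All 5 had counts in each of the 4 BRD3308 libraries. The same genes were higher with BRD3308 in the other lines, with 12 to 42 counts over the 4 BRD3308 libraries of BB cells, against 0 to 8 over the 4 DMSO libraries. In the reverse direction 0 genes met the same limits.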
